A study of Mus musculus with 66 samples.

Results

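The comparison described here is between whole cerebellum of C57BL/6J mice at embryonic day 14 (E14) and at embryonic day 13 (E13), a single day of development in one inbred strain. Its members were chosen by their labels: the 2 arrays labelled E14 and the 3 labelled E13 in the C57BL/6J signal table, 5 of the 35 arrays of that strain and of the 66 in the series. The mice of both ages were untreated, and no engineered allele is named in the labels. The series covers C57BL/6J and DBA/2J cerebellum from E12 to postnatal day 9 on Illumina bead arrays, whose probes each report the brightness of 1 short stretch of a transcript. Replicates are called biological in the labels, while the sex of the embryos and the number of cerebella in a sample are not stated in the sources used here. Differences are E14 minus E13, on the log2 scale of normalized signal, with the standard error (SE) of a limma fit, and a probe or gene was called at an adjusted p under 0.05.

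At this age the cerebellar primordium holds dividing progenitors in a ventricular zone and a rhombic lip, and neurons that have left them. The ventricular zone, marked by the factor Ptf1a, gives rise to the inhibitory neurons, with Purkinje cells among the first to be born. The rhombic lip, marked by Atoh1, gives rise to glutamatergic neurons, first those of the cerebellar nuclei and then the granule cell precursors that spread over the surface. Notch signalling between neighbouring cells keeps progenitors from differentiating.

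Genes of regional identity were read first. The midbrain and hindbrain boundary factors En1 and En2 read 11.32 to 12.01 and 12.42 to 12.65 on the 5 arrays. Of 16 Hox genes of the caudal hindbrain 6 passed the filter on dim probes. Of these Hoxb2 was the brightest, at 6.70, 8.60 and 7.51 at E13 and 6.62 and 7.84 at E14, so arrays of one age differed in it, and the other 5 read 6.38 to 7.08. The part of adjoining midbrain or hindbrain in the results was not tested. Atoh1, Pax2 and Gli1 are on the array but did not pass that filter, so the rhombic lip and interneuron precursors are seen here only through other genes. The 2 E14 arrays stood apart from each other. E14 replicate 1 correlated with E14 replicate 2 at r = 0.968 across probes, and with the 3 E15 arrays at 0.984 to 0.990. E14 replicate 2 correlated with E13 replicates 1, 2 and 3 at 0.989, 0.970 and 0.988. It shared a chip with E13 replicate 1, and the other 3 arrays were on 3 other chips. The highest signal was 20227 on E14 replicate 1 and 43262 to 47470 on the other 4 arrays. For the genes that the results turn on, values are therefore given for every array, and calls that ended without 1 array or under a fixed chip block are named.

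Strain labels were checked at 93 probes that separated C57BL/6J from DBA/2J on the arrays of all other ages, on a scale where 0 is the DBA/2J mean and 1 the C57BL/6J mean. The 5 arrays of this comparison lay between 0.91 and 1.02, in accord with their labels. The array labelled DBA/2J E13 replicate 3 lay at 0.99, DBA/2J E13 replicate 2 at 0.59 and DBA/2J E12 replicate 2 at 0.41, while the other DBA/2J arrays lay between -0.13 and 0.23. The array labelled DBA/2J E13 replicate 3 therefore went against its label and replicate 2 lay between the strains. The C57BL/6J contrast uses neither array, and the DBA/2J comparisons below are given with both and with DBA/2J E13 replicate 1 alone.

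**Figure D1:**
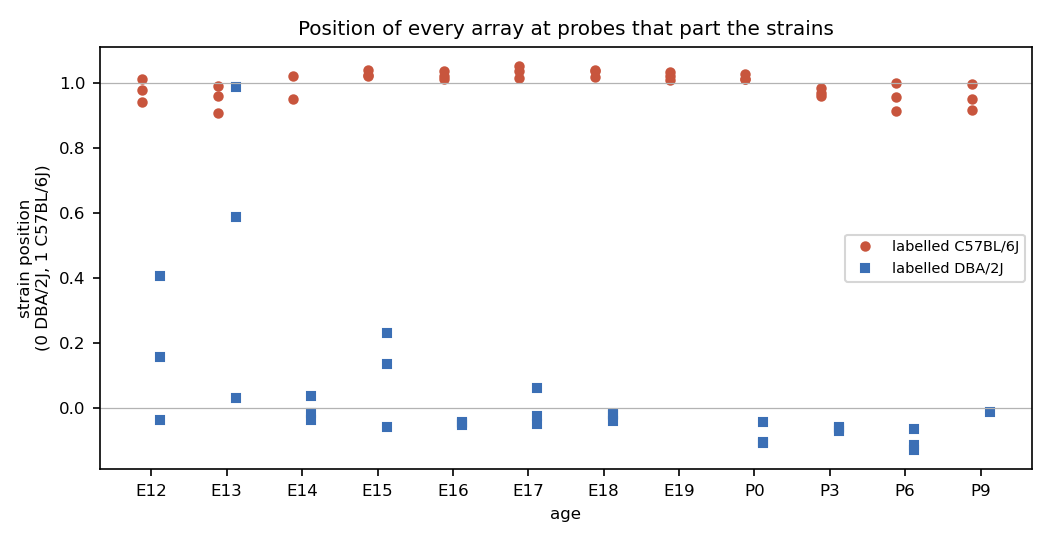
Strain position of each of the 66 arrays (vertical axis, no unit, 0 for the DBA/2J mean and 1 for the C57BL/6J mean, median over 93 probes) by age, with C57BL/6J arrays as circles and DBA/2J arrays as squares. All C57BL/6J arrays lie near 1, and the array labelled DBA/2J E13 replicate 3 lies among them at 0.99.

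Between E13 and E14, 661 of 25843 probes changed (2.56%), 412 upward and 249 downward. With each of 18585 genes represented by its brightest probe, 378 genes rose (2.03%) and 207 fell (1.11%). Most changes were small: 96 of the called probes changed at least 2-fold, 56 upward and 40 downward. With arrays scaled to equal medians, 50.2% of the called probes rose, against 62.3% here, and with the chip as a fixed block the balance turned to 45.0%, with 140 upward and 171 downward. Over the 585 called genes, the difference in the single pair of arrays on the shared chip was 0.801 times the fitted one in the median. These 2 arrays, E14 replicate 2 and E13 replicate 1, are among the 5 that gave the calls. Their agreement in direction, and the separation of the ages in called genes, are therefore no separate support. Within that chip Rora differed by 1.85, Esrrb by 1.79, Camk2b by 1.09, Ccnd1 by -0.90, Nrarp by -1.02 and Hbb-bh1 by -2.49. A core of 107 genes, 64 upward and 43 downward, stayed called whichever of the 5 arrays was left out. Without E14 replicate 1 the number of called probes was 96 upward and 78 downward, and without E14 replicate 2 it was 1150 and 764.

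The genes called in this 1-day step were then read in arrays that the step does not use, those of E12 and E15, with 3 arrays each. Of the 378 genes that rose between E13 and E14, 378 were higher at E15 than at E12, 371 of them past the test. Of the 207 that fell, 205 were lower at E15, 190 past the test. Over all genes tested, 48.3% were higher at E15, with 21% called higher and 18.8% called lower. The median E15 minus E12 difference was 1.58 over the genes that rose, -1.19 over those that fell and -0.01 over all genes. The exceptions were Crym, a crystallin-family protein that binds thyroid hormone, and Rbm20, an RNA-binding splicing factor, both named after their values were seen. Crym fell by 1.05 between E13 and E14 and was 0.20 higher at E15 than at E12 (adjusted p = 0.508), and Rbm20 fell by 0.60 and was 0.13 higher (adjusted p = 0.526). Both contrasts come from one fit and share its estimate of the spread, and E15 replicate 2 lay on the chip of E14 replicate 1. E15 replicates 2 and 3 were also in the array series of E14 replicate 1, a series being chips whose numbers begin alike. No series held arrays of both E12 and E15, so age and array series cannot be told apart in the E15 minus E12 difference.

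**Figure D2:**
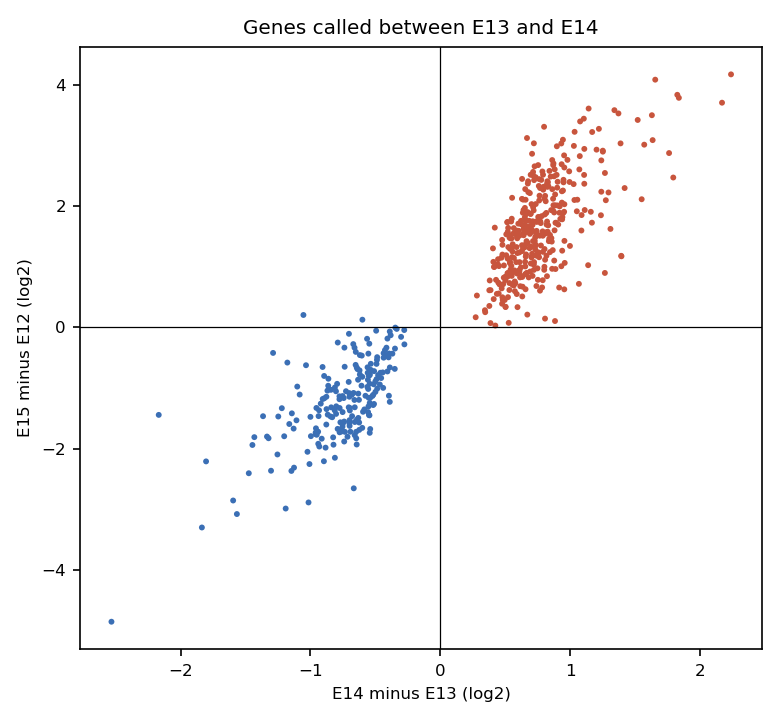
E15 minus E12 difference (vertical axis, log2) against E14 minus E13 difference (horizontal axis, log2) for the 585 genes called between E13 and E14, 1 point per gene, with genes that rose in red and genes that fell in blue. All 378 genes that rose lie above 0 on the vertical axis, and 205 of 207 that fell lie below it.

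Of 27 measured Purkinje cell genes, 8 rose and 0 fell, among 30 listed, with a median difference of 0.40 against 0.00 over all genes. Beside this count and those of the lists below, 2.03% of all genes rose and 1.11% fell. Rora, the nuclear receptor whose loss causes the staggerer phenotype, read 8.51, 7.77 and 8.13 at E13 and 10.25 and 10.37 at E14, in the order of the replicates. Both E14 arrays lay well above all E13 arrays and close together. In bulk tissue, more cells of a type and more of a transcript per cell cannot be told apart, here and in the groups that follow. Rora rose by 2.17 ± 0.25 (adjusted p = 4.68e-06), and its E12 and E15 means were 6.94 and 10.65. Dimmer second probes of Rora, and of Nrp2 and Gbx2 described below, were not called, and those of Nrp2 and Gbx2 had the opposite sign. Foxp2, a forkhead factor of young Purkinje cells, read 9.26, 9.04 and 9.13 at E13 and 10.27 and 10.17 at E14 and rose by 1.07 ± 0.17 (adjusted p = 0.000441). Its groups did not overlap either. Aldoc, the aldolase of Purkinje cell stripes and of astrocytes, read 7.98, 7.76 and 7.82 at E13 and 9.35 and 8.64 at E14. E14 replicate 1 was the highest and replicate 2 stood between it and the E13 arrays. Aldoc rose by 1.14 ± 0.21 (adjusted p = 0.00149). Further members that rose were Dab1, the adaptor of Reelin signalling (1.03 ± 0.19), the factor Ebf3 (0.75 ± 0.17), the growth factor Fgf3 (0.77 ± 0.13) and the ETS factor Etv1 (1.40 ± 0.27). Calb1, the calbindin of mature Purkinje cells, read 6.13 to 6.73, near the array median, and the LIM factors Lhx1 and Lhx5 differed by 0.11 ± 0.19 and -0.30 ± 0.18, with adjusted p-values of 0.403, 0.879 and 0.524 in that order. Aldoc, Dab1, Ebf3 and Etv1 lost their calls without E14 replicate 1, at adjusted p-values of 0.181, 0.24, 0.338 and 0.0643 in that order. Aldoc, Dab1 and Ebf3 were not called under a fixed chip block, at adjusted p-values of 0.183, 0.0723 and 0.287 in that order.

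Of 18 listed genes 16 were measured above the filter in the granule neuron list, of which 4 rose and 0 fell (median 0.27). Over all genes 2.03% rose and 1.11% fell. Calb2, the calcium-binding protein calretinin, read 8.71, 8.34 and 8.39 at E13 and 10.34 and 10.27 at E14. The E14 arrays were nearly equal and lay above every E13 array, and Calb2 rose by 1.83 ± 0.16 (adjusted p = 1.47e-07). Cntnap4, a neurexin-related adhesion protein, read 8.49, 8.22 and 8.42 at E13 and 10.28 and 10.15 at E14 and rose by 1.84 ± 0.18 (adjusted p = 5.15e-07). Here too the ages were fully apart. Etv1, which stands in both lists, read 8.37, 7.92 and 8.51 at E13 and 9.67 and 9.66 at E14. E14 replicates were level and above E13. Reln, the secreted guide of Purkinje cell migration, read 11.09, 10.49 and 11.55 at E13 and 12.00 and 11.98 at E14, with E13 replicate 3 the closest to the E14 arrays, and rose by 0.95 ± 0.25 (adjusted p = 0.0389). None of these 4 genes is made by granule neurons alone. Neurod1 read 7.29 to 8.04 and was not called (0.25 ± 0.47, adjusted p = 0.891). Slc17a7, Gabra6 and Grin2c read 6.10 to 6.28, 5.87 to 5.97 and 6.55 to 6.67 in that order and were not called. Cntn2, the axonal adhesion protein of postmitotic granule cells, read 11.82, 11.51 and 11.99 at E13 and 9.53 and 11.46 at E14 and did not pass the test (difference -1.28 ± 0.39, adjusted p = 0.0884), with E14 replicate 1 far below E14 replicate 2. In the list of rhombic lip and granule cell progenitors 14 of 17 genes were measured and 0 rose or fell (median 0.03). Pax6 and Barhl1, factors of the rhombic lip lineage, differed by 0.23 ± 0.22 and 0.04 ± 0.12 (adjusted p = 0.742 and 0.943), and the zinc finger factor Zic1 by 0.26 ± 0.26 (adjusted p = 0.747). Reln lost its call without E13 replicate 1, E13 replicate 2, E14 replicate 1 or E14 replicate 2, at adjusted p-values of 0.0819, 0.216, 0.302 and 0.0707 in that order.

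Synaptic genes were higher at E14 in part. Of 34 listed synapse genes 34 were measured, and 10 rose, 0 fell and 24 gave no call (median 0.47, with 30 members above 0). The summed signal of the list was 27440 to 29069 on the E13 arrays and 38896 and 47926 on the E14 arrays, so the ages did not overlap. Camk2b, a subunit of calcium/calmodulin kinase II, read 9.54, 9.92 and 9.47 at E13 and 10.86 and 10.63 at E14 and rose by 1.11 ± 0.17 (adjusted p = 0.000275). Its E14 arrays lay close together. The postsynaptic scaffold Dlg2 read 7.12, 7.20 and 7.36 at E13 and 9.50 and 8.21 at E14 and rose by 1.63 ± 0.29 (adjusted p = 0.00105), with most of its change in E14 replicate 1. The AMPA receptor subunits Gria1 and Gria2 rose by 0.95 ± 0.20 and 1.05 ± 0.22. Presynaptic members that rose were Syt1, the calcium sensor of vesicle fusion (0.70 ± 0.14), the vesicle protein Sv2b (0.90 ± 0.15), the fusion proteins Stx1a and Cplx1 (0.65 ± 0.13 and 0.72 ± 0.15) and beta-synuclein Sncb (0.93 ± 0.16). Dlg2, Gria2, Sv2b and Cplx1 lost their calls without E14 replicate 1, at adjusted p-values of 0.187, 0.36, 0.0827 and 0.13 in that order. Gria1 lost its call without E14 replicate 2, at an adjusted p of 0.063. The list counted 5 rises without E14 replicate 1, 12 without E14 replicate 2 and 8 with the chip as a fixed block. Stx1a and Syt1 were not called under a fixed chip block, at adjusted p-values of 0.112 and 0.0819 in that order.

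In the list of early neuronal differentiation 2 of 26 measured genes rose and 0 fell (median 0.22), and 0 rose with the chip as a fixed block. Myt1l, a repressor of non-neuronal genes, read 10.79 to 11.02 at E13 and 12.10 and 11.65 at E14 and rose by 0.94 ± 0.13 (adjusted p = 7.6e-05), and the microtubule protein tau, Mapt, rose by 0.79 ± 0.19 (adjusted p = 0.0213). Both E14 arrays were above E13 for each gene. In the list of axon guidance and adhesion genes 2 of 28 rose and 0 fell (median 0.16): the semaphorin receptor Nrp2 by 1.11 ± 0.22 and the contactin Cntn1 by 1.07 ± 0.16. Over all genes 2.03% rose and 1.11% fell, and whether these 2 lists differ from those shares was not tested. Mapt and Nrp2 lost their calls without E14 replicate 1, at adjusted p-values of 0.398 and 0.113 in that order. Mapt lost its call without E13 replicate 1 or E13 replicate 3, at adjusted p-values of 0.0635 and 0.0959 in that order. Mapt and Myt1l were not called under a fixed chip block, at adjusted p-values of 0.124 and 0.066 in that order.

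Cell cycle genes had lower values at E14. Of 30 listed genes 27 were measured above the filter, and 6 of these fell, 0 rose and 21 gave no call, while 26 of the 27 differences were below 0 (median -0.48). The summed signal of the list ran from 31792 to 35666 on the E13 arrays and was 23315 and 22825 on the E14 arrays. Ccnd1, the D-type cyclin that admits cells to S phase, read 11.44, 11.49 and 11.33 at E13 and 9.89 and 10.54 at E14 and fell by 1.20 ± 0.18 (adjusted p = 0.000122). E14 replicate 2 lay between E14 replicate 1 and the E13 arrays. Ccnd2 fell by 0.56 ± 0.14 (adjusted p = 0.0254), the mitotic inhibitor of apoptosis Birc5 by 0.79 ± 0.16, the nucleotide synthesis enzymes Tyms and Rrm2 by 0.66 ± 0.14 and 0.66 ± 0.18, and Cdc20, the activator of the anaphase-promoting complex, by 0.76 ± 0.18 (adjusted p = 0.0205). E2f1, a transcription factor of S-phase genes outside the list, read 10.53, 10.82 and 10.46 at E13 and 9.28 and 9.42 at E14 and fell by 1.25 ± 0.17 (adjusted p = 4.06e-05), with the ages fully apart. Mki67, the proliferation marker, read 9.75, 9.64 and 10.10 at E13 and 9.95 and 9.36 at E14, with overlapping groups and no call (-0.18 ± 0.20, adjusted p = 0.789). Ccnd2, Birc5, Tyms and Cdc20 lost their calls without E14 replicate 1, at adjusted p-values of 0.317, 0.0893, 0.0746 and 0.214 in that order. Ccnd2, Rrm2 and Cdc20 lost their calls without E13 replicate 1, at adjusted p-values of 0.151, 0.0692 and 0.0575 in that order. Rrm2 and Cdc20 lost their calls without E13 replicate 3, at adjusted p-values of 0.0602 and 0.0626 in that order. Rrm2 lost its call without E13 replicate 2 or E14 replicate 2, at adjusted p-values of 0.215 and 0.348 in that order. With the chip as a random block 13 members fell, and 2 did so without E14 replicate 1. Ccnd2, Cdc20 and Tyms were not called under a fixed chip block, at adjusted p-values of 0.106, 0.0888 and 0.0809 in that order.

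The promoters of Cdc20 and Rrm2 are shown because both called genes hold the CCAAT box, a common element of cell cycle promoters. They are RefSeq promoters on GRCm38.p6, 250 bases before to 50 after the gene's start, written 5′ to 3′ on the gene's strand, at chr4:118437294-118437593 on the minus strand and chr12:24708004-24708303 on the plus strand. Capitals mark CCAAT and TTTGAA, the core of the cell cycle homology region, searched on both strands.
Cdc20: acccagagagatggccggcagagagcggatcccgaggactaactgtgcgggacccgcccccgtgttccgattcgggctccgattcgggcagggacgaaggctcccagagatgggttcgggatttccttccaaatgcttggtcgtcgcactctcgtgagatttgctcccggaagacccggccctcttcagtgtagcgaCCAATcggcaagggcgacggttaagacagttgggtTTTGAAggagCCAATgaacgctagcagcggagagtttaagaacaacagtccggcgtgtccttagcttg
Rrm2: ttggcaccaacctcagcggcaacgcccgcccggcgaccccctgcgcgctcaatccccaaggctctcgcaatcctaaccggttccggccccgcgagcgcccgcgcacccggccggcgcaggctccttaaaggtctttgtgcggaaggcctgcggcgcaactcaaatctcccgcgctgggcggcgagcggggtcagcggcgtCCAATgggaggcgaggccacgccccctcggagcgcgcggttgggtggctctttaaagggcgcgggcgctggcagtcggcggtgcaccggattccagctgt
Cdc20 held CCAAT at 53 and at 8 bases before its start with TTTGAA between them at 18, and Rrm2 held CCAAT at 50. Of the 30 listed cell cycle genes 24 had a promoter in the RefSeq table, and 21 of these (87.5%) held CCAAT and 12 (50%) TTTGAA, against 41.1% and 20.2% of all 27025 genes in it. Of the 6 called members 4 had an entry and 2 held CCAAT.

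Part of the Notch pathway fell. Of 17 listed genes 16 were measured above the filter, and 5 fell, 1 rose and 10 gave no call (median -0.39). Among receptors and ligands, Notch1 read 11.15, 10.90 and 11.32 at E13 and 10.03 and 10.55 at E14 and fell by 0.83 ± 0.18 (adjusted p = 0.0103), and the ligand Dll1 fell by 0.70 ± 0.19. For Notch1, E14 replicate 2 lay nearer to E13 than replicate 1 did, without overlap. Mfng, a glycosyltransferase that modifies the receptor, read 10.11, 9.96 and 10.16 at E13 and 8.38 and 8.88 at E14 and fell by 1.45 ± 0.29 (adjusted p = 0.00411). Of the targets, Nrarp, a feedback inhibitor that Notch switches on, read 11.80, 11.45 and 11.64 at E13 and 10.56 and 10.78 at E14 and fell by 0.96 ± 0.11 (adjusted p = 6.13e-06), and the repressor Hey1 fell by 0.74 ± 0.20 (adjusted p = 0.0456). Nrarp kept its call whichever array was left out and with the chip as a random or a fixed block, but not in a fit of these 5 arrays alone (adjusted p = 0.202). That 5-array fit called 0 probes of any gene. Hes5, another target, read 11.39, 10.44 and 11.04 at E13 and 9.72 and 10.81 at E14 and was not called (-0.69 ± 0.29, adjusted p = 0.267), with E14 replicate 2 inside the E13 range. Against the others Dner, a Notch-related ligand that Purkinje cells make, rose by 0.57 ± 0.16 (adjusted p = 0.0491). Notch1, Dll1, Mfng, Hey1 and Dner lost their calls without E14 replicate 1, at adjusted p-values of 0.397, 0.42, 0.179, 0.126 and 0.602 in that order. Dll1, Hey1 and Dner lost their calls without E13 replicate 1, at adjusted p-values of 0.0949, 0.0529 and 0.094 in that order. Dll1, Hey1 and Dner lost their calls without E13 replicate 2, at adjusted p-values of 0.0577, 0.225 and 0.133 in that order. Notch1, Dll1 and Dner lost their calls without E13 replicate 3, at adjusted p-values of 0.0601, 0.163 and 0.102 in that order. Hey1 lost its call without E14 replicate 2, at an adjusted p of 0.181. Dll1, Dner and Notch1 were not called under a fixed chip block, at adjusted p-values of 0.0587, 0.251 and 0.17 in that order.

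In the ventricular zone and radial glia list 3 of 21 genes fell and 1 rose (median -0.23). Dbx1, a homeobox factor of ventral and dorsal progenitor domains, read 11.31, 10.78 and 11.09 at E13 and 8.98 and 9.47 at E14 and fell by 1.84 ± 0.39 (adjusted p = 0.00683). Both E14 arrays were far below E13. Prom1, a surface protein of the apical membrane, fell by 0.64 ± 0.10 and the factor Sox3 by 0.44 ± 0.11. Tnc, the matrix protein tenascin C, read 7.52, 7.16 and 7.71 at E13 and 9.46 and 8.78 at E14 and rose by 1.66 ± 0.24 (adjusted p = 0.000137), against the list. Its E12 mean was 6.31 and its E15 mean 10.40. Fabp7, the radial glial fatty acid binding protein, read 6.25 to 6.77 and was not called (adjusted p = 0.823). Dbx1 and Sox3 lost their calls without E14 replicate 1, at adjusted p-values of 0.196 and 0.455 in that order. Sox3 lost its call without E13 replicate 1, at an adjusted p of 0.089. Sox3 was not called under a fixed chip block, at an adjusted p of 0.19.

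Several progenitor factors of the inhibitory lineage fell, while 2 products of inhibitory neurons rose. Of 24 listed genes 21 were measured above the filter, and 7 fell, 2 rose and 12 gave no call (median -0.26). Ptf1a, which specifies all inhibitory neurons of the cerebellum, read 10.91, 10.42 and 10.85 at E13 and 9.17 and 10.26 at E14 and fell by 1.01 ± 0.24 (adjusted p = 0.02). E14 replicate 1 carried most of that change, and replicate 2 lay just under the lowest E13 array. The proneural factor Neurog2 read 10.25, 10.11 and 10.32 at E13 and 8.69 and 9.25 at E14 and fell by 1.25 ± 0.18 (adjusted p = 0.000131). Its ages did not overlap. Dlx2 and Sall3 fell by 0.61 ± 0.16 and 0.91 ± 0.24. Npy, the neuropeptide Y gene, read 7.23, 7.70 and 6.99 at E13 and 9.06 and 8.70 at E14 and rose by 1.57 ± 0.19 (adjusted p = 1.28e-05), and Slc32a1, the vesicular GABA transporter, rose by 0.52 ± 0.14 (adjusted p = 0.0485). Gad1, the enzyme that makes GABA, differed by 0.55 ± 0.19 and was not called (adjusted p = 0.158). Ptf1a, Dlx2, Sall3 and Slc32a1 lost their calls without E13 replicate 1, at adjusted p-values of 0.0852, 0.0772, 0.0882 and 0.0729 in that order. Ptf1a, Dlx2, Sall3 and Slc32a1 lost their calls without E14 replicate 1, at adjusted p-values of 0.669, 0.459, 0.396 and 0.22 in that order. Dlx2, Sall3 and Slc32a1 lost their calls without E13 replicate 2, at adjusted p-values of 0.0998, 0.192 and 0.0518 in that order. Ptf1a, Dlx2 and Slc32a1 lost their calls without E13 replicate 3, at adjusted p-values of 0.0755, 0.106 and 0.205 in that order. Slc32a1 lost its call without E14 replicate 2, at an adjusted p of 0.129. Dlx2, Ptf1a and Slc32a1 were not called under a fixed chip block, at adjusted p-values of 0.136, 0.314 and 0.115 in that order.

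Gata2, Gata3 and Tal1 fell together, and these 3 factors are known both from GABAergic neurons of the midbrain and brainstem and from blood cells. Tal1 read 10.31, 10.86 and 10.18 at E13 and 8.12 and 8.44 at E14 and fell by 2.17 ± 0.33 (adjusted p = 0.000202). Gata2 read 7.73, 8.38 and 7.70 at E13 and 6.84 and 6.68 at E14 and fell by 1.18 ± 0.17 (adjusted p = 0.000104), and Gata3 read 7.13, 8.48 and 6.96 at E13 and 6.37 and 6.10 at E14 and fell by 1.29 ± 0.29 (adjusted p = 0.013). In each of them E13 replicate 2 was the highest array and both E14 arrays the lowest. Of 16 genes of midbrain and brainstem nuclei 7 passed the filter, with a summed signal of 1691 to 2055 at E13 and of 1470 and 1616 at E14. The serotonergic markers Tph2, Fev and Slc6a4 and the midbrain factors Foxa1, Foxa2 and Pitx3 did not pass it. Nr4a2, a factor of midbrain dopamine neurons, fell by 1.14 ± 0.20 (adjusted p = 0.000863), and Th, the enzyme of dopamine synthesis, was not called (-0.32 ± 0.10, adjusted p = 0.0817). The part of neighbouring tissue, or of blood, in these falls was not tested. Gata3 and Nr4a2 lost their calls without E14 replicate 1, at adjusted p-values of 0.0893 and 0.178 in that order. Gata3 lost its call without E13 replicate 2 or E14 replicate 2, at adjusted p-values of 0.0754 and 0.0607 in that order.

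In the list of cerebellar nuclear and early rhombic lip neurons several genes fell and 1 rose. Of 15 listed genes 14 were measured above the filter, and 6 fell, 1 rose and 7 gave no call (median -0.41). Lhx9 and Lhx2 are LIM factors of early glutamatergic nuclear neurons. Lhx9 read 8.75, 8.64 and 8.75 at E13 and 7.71 and 7.85 at E14 and fell by 0.94 ± 0.14 (adjusted p = 0.000105), with no overlap and little spread within each age, and Lhx2 fell by 0.73 ± 0.15 (adjusted p = 0.00411). Olig3, a progenitor factor of the rhombic lip and ventricular zone, read 9.71, 9.32 and 9.70 at E13 and 8.38 and 8.74 at E14 and fell by 1.02 ± 0.14 (adjusted p = 4.06e-05). Pou3f1, Evx1 and Irx3 fell by 1.13 ± 0.17, 1.15 ± 0.19 and 0.96 ± 0.23. Tbr1, the T-box factor of later nuclear neurons, read 7.18, 6.94 and 7.22 at E13 and 8.39 and 8.18 at E14 and rose by 1.17 ± 0.13 (adjusted p = 4.68e-06). Its mean was 6.53 at E12 and 8.26 at E15. Eomes, the other T-box factor of the lineage, and Slc17a6, the vesicular glutamate transporter, were not called (differences 0.28 ± 0.22 and -0.21 ± 0.17, adjusted p = 0.673 and 0.676). Lhx2, Pou3f1, Evx1 and Irx3 lost their calls without E14 replicate 1, at adjusted p-values of 0.22, 0.0503, 0.0743 and 0.626 in that order. Irx3 lost its call without E13 replicate 2, at an adjusted p of 0.0834. Evx1, Irx3 and Lhx2 were not called under a fixed chip block, at adjusted p-values of 0.0809, 0.192 and 0.234 in that order.

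Some genes of the isthmic organiser, the source of FGF and WNT proteins at the midbrain and hindbrain border, fell. Of 26 listed genes 23 were measured above the filter, and 4 fell, 1 rose and 18 gave no call. The median was -0.04, with 9 members above 0 and 14 below. Fgf17 read 7.55, 7.46 and 7.68 at E13 and 6.78 and 6.98 at E14 and fell by 0.68 ± 0.08 (adjusted p = 8.47e-06), a small change with little spread. Wnt3a fell by 1.02 ± 0.18, Wnt8b by 0.43 ± 0.10 and the paired-box factor Pax8 by 0.56 ± 0.10. Wnt8b and Pax8 were dim, at 6.25 to 6.94 and 6.22 to 7.03 on the 5 arrays. Fgf8 and Wnt1, the organiser's best-known signals, read near the array median and were not called (differences -0.54 ± 0.21 and -0.14 ± 0.12, adjusted p = 0.223 and 0.714). Gbx2, a homeobox factor of the hindbrain side of the border, read 10.55, 9.99 and 10.25 at E13 and 11.04 and 11.25 at E14 and rose by 0.88 ± 0.15 (adjusted p = 0.0006). Both E14 arrays stood above E13, yet its means were 10.35 at E12 and 10.45 at E15, so its level was highest at E14 among these 4 ages. Of 10 measured genes of Sonic hedgehog signalling 1 fell, the transcription factor Gli3 by 0.65 ± 0.11 (adjusted p = 0.000827), and 0 rose. Shh itself read 6.14 to 6.44, the receptor Ptch1 differed by 0.08 ± 0.22, and Gli2 by -0.56 ± 0.16 (adjusted p = 0.0568). Pax8 and Wnt8b lost their calls without E14 replicate 1, at adjusted p-values of 0.106 and 0.554 in that order. Wnt8b lost its call without E13 replicate 1 or E13 replicate 2, at adjusted p-values of 0.0514 and 0.056 in that order. Pax8 and Wnt8b were not called under a fixed chip block, at adjusted p-values of 0.133 and 0.163 in that order.

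The largest rises also held genes outside the lists. Esrrb, an orphan nuclear receptor, read 8.97, 8.72 and 8.61 at E13 and 11.26 and 10.76 at E14 and rose by 2.24 ± 0.15 (adjusted p = 4.41e-10), the largest rise under the naming rule. Its E12 mean of 6.38 lay near the array median, and its second, dimmer probe had the opposite sign and was not called. The related receptor Esrrg read 7.82, 8.13 and 8.39 at E13 and 10.12 and 8.85 at E14 and rose by 1.37 ± 0.27 (adjusted p = 0.00338), mostly in E14 replicate 1. Rxfp3, the receptor for the peptide relaxin-3, read 6.36, 6.48 and 6.24 at E13 and 8.70 and 7.54 at E14 and rose by 1.76 ± 0.19 (adjusted p = 3.22e-06). Every E13 array was near the array median, both E14 arrays were above it, and replicate 1 was the higher. Sned1 and Timp4, a matrix protein and an inhibitor of matrix metalloproteinases, rose by 1.34 ± 0.15 and 1.30 ± 0.14, Medag by 1.39 ± 0.15 and Dpp10, a potassium channel partner, by 1.52 ± 0.28. Esrrg and Dpp10 lost their calls without E14 replicate 1, at adjusted p-values of 0.379 and 0.268 in that order.

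Among the largest falls outside the lists, Otx1, a homeobox factor of forebrain and midbrain, read 8.90, 9.73 and 9.49 at E13 and 7.26 and 7.88 at E14 and fell by 1.80 ± 0.31 (adjusted p = 0.000765). E14 replicate 1 was the lowest array, and the ages did not overlap. Otx2, its relative in midbrain and choroid plexus, was not called (0.20 ± 0.23, adjusted p = 0.797). The retinoic acid binding proteins Crabp1 and Crabp2 fell by 1.57 ± 0.20 and 1.19 ± 0.20, and Crabp2 stands in the list of meninges. Gng8, a G protein subunit, fell by 1.32 ± 0.18, Wfdc2 by 1.30 ± 0.18 and Spx, the peptide spexin, by 1.22 ± 0.18. Mgarp, a mitochondrial protein, read 7.89, 9.75 and 8.68 at E13 and 7.50 and 7.37 at E14 and fell by 1.34 ± 0.30 (adjusted p = 0.0124), with a wide spread at E13. Otx1 and Mgarp lost their calls without E14 replicate 1, at adjusted p-values of 0.0726 and 0.117 in that order. Mgarp lost its call without E13 replicate 2, at an adjusted p of 0.072. Mgarp was not called under a fixed chip block, at an adjusted p of 0.241.

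**Figure D3:**
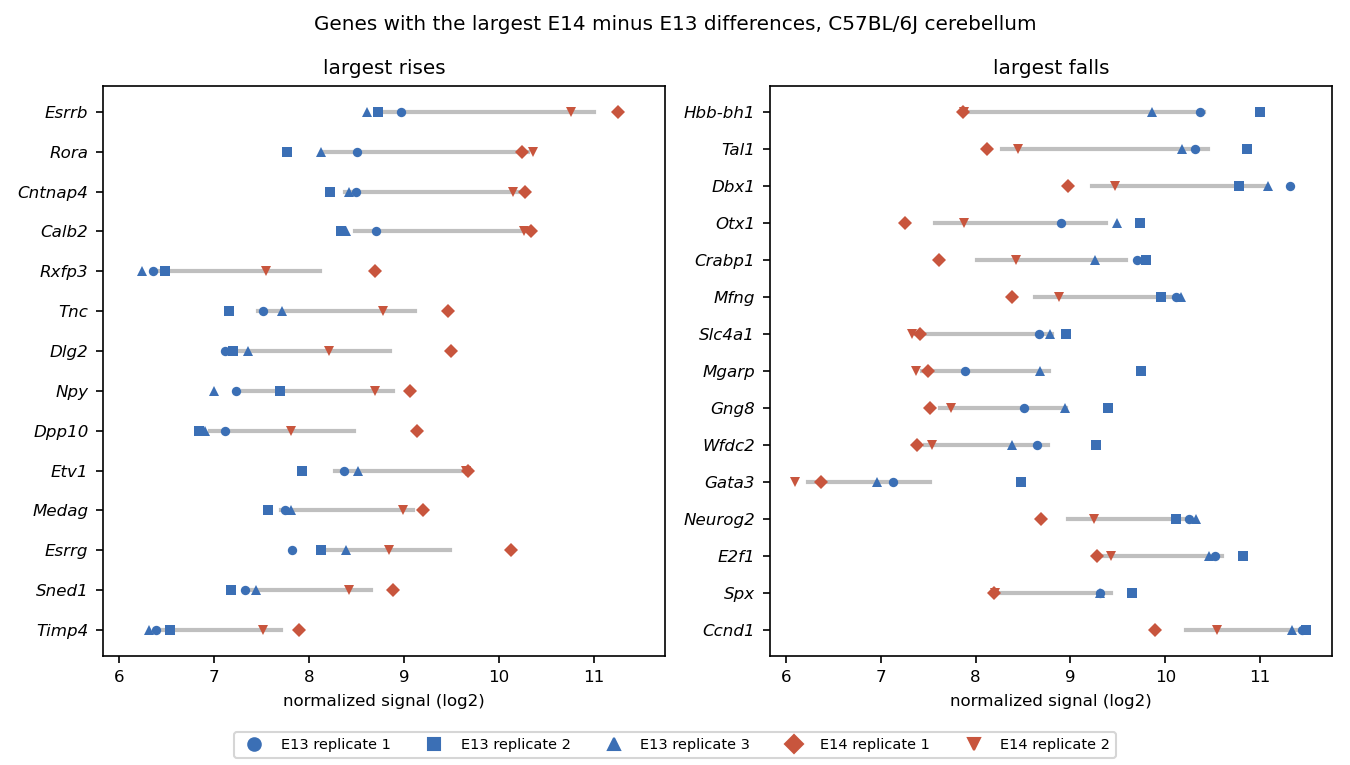
Normalized signal (horizontal axis, log2) of 14 of the 15 largest rises (left) and the 15 largest falls (right) on each array, with E13 in blue and E14 in red, 1 symbol per replicate and a grey bar between the 2 group means. Genes were chosen so that no E14 point lies inside the E13 range. E14 replicate 2 lies nearer to E13 than replicate 1 in genes such as Dlg2, Dpp10 and Esrrg.

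The largest change among the named genes was in an embryonic globin. Primitive red cells of the early embryo carry embryonic globins, and definitive red cells from the fetal liver replace them in the circulation. Hbb-bh1, an embryonic beta-type globin, read 10.37, 10.99 and 9.85 at E13 and 7.87 and 7.87 at E14 and fell by 2.53 ± 0.32 (adjusted p = 1.7e-05). The E14 arrays were equal to 2 decimals, 11.76 was its mean at E12 and 6.91 at E15. Hba-x, the embryonic alpha-type globin, read 12.62, 12.64 and 12.56 at E13 and 11.13 and 11.30 at E14, with E14 below E13 and no call (-1.39 ± 0.41, adjusted p = 0.0748). Hbb-y, another embryonic beta-type globin, read 13.39, 13.08 and 13.47 at E13 and 12.17 and 12.74 at E14 and was not called (-0.86 ± 0.53, adjusted p = 0.538). Both were called when the fit held only embryonic ages, at adjusted p-values of 0.000123 for Hba-x and 0.00495 for Hbb-y. Hba-x was also called with the chip as a fixed block (adjusted p = 0.00113), and over all alternatives its adjusted p ran from 0.000123 to 0.435. The adult beta globin Hbb-b1 read 13.31, 13.40 and 13.33 at E13 and 14.25 and 13.86 at E14, above E13 on both E14 arrays (0.71 ± 0.20, adjusted p = 0.0579). Hbb-b1 had 11 kept probes. Of those other than this brightest one, 2 were called higher and 0 lower, and the rest were not called. Slc4a1, the anion exchanger of the red cell membrane, read 8.67, 8.95 and 8.78 at E13 and 7.41 and 7.32 at E14 and fell by 1.43 ± 0.16 (adjusted p = 3.22e-06). The summed signal of the 3 embryonic globin probes was 17093 to 18333 at E13 and 7092 and 9573 at E14. That of 8 of 13 adult-type globin and erythroid genes was 26617 to 28988 and then 33674 and 41916. Among these 8 genes 0 rose, 1 fell (Slc4a1) and 7 gave no call. Their median difference was 0.01, with 4 above 0 and 4 below. Hbb-b1 and Hba-a1 were the brightest of them, and Hba-a1 was not called either (0.31 ± 0.17, adjusted p = 0.469). Gata1, Epb42 and Hemgn did not pass the filter. Some adult globin genes are near-identical copies of each other, and their probes may not tell them apart.

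The promoters of Hba-x and Hbb-y, from the same RefSeq table, are shown because these 2 embryonic globins also had lower values at E14 than at E13. Hbb-bh1 has no entry in the table. Their windows lie at chr11:32276350-32276649 on the plus strand and chr7:103853158-103853457 on the minus strand. Capitals mark the CACCC element, the CCAAT box and a TATA-type element, which is TATAAA in Hba-x and is written as ATAAAA in Hbb-y, all searched on both strands.
Hba-x: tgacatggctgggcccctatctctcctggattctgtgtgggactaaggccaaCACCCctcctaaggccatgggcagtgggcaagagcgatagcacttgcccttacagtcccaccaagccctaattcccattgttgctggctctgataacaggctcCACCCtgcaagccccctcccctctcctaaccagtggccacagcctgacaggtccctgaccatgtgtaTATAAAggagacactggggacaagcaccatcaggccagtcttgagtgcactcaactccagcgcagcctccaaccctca
Hbb-y: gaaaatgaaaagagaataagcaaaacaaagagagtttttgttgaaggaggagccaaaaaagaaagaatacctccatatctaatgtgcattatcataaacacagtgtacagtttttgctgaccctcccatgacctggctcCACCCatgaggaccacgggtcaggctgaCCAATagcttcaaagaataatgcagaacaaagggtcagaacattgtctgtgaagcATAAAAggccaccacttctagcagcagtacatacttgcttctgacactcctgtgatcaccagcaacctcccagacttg
Both genes held a TATA-type element at 28 bases before the start and CACCC upstream of it, at 198 and 95 bases in Hba-x and at 111 in Hbb-y, and Hbb-y held CCAAT at 83. Of all 32851 promoters of this length 57.5% held CACCC, 37.4% the CCAAT box, 13.6% TATAAA and 18.5% ATAAAA.

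**Figure D4:**
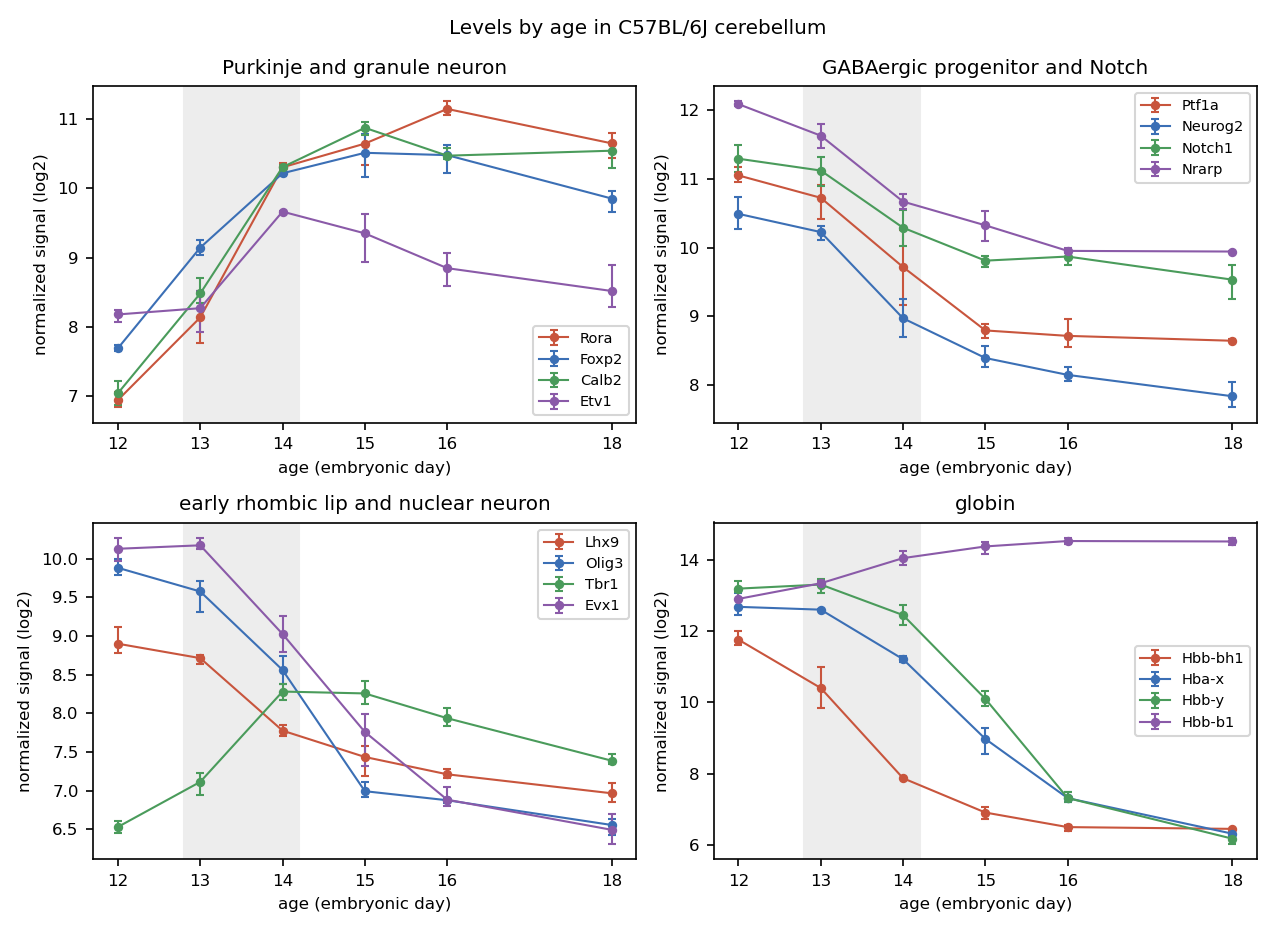
Normalized signal (vertical axis, log2) of 16 genes in C57BL/6J at 6 of the embryonic ages (horizontal axis, embryonic day), as means of 3 arrays (2 at E14) with bars from the lowest to the highest array and the E13 to E14 step shaded. Rora and Calb2 rise and Nrarp, Neurog2 and Lhx9 fall through the shaded step, Etv1 is highest at E14, and Hbb-bh1 falls before Hba-x and Hbb-y.

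Glial, immune and stress lists had few calls or none, beside 2.03% of all genes that rose and 1.11% that fell. In lists this short an absence of calls lies near those shares. No oligodendrocyte, microglial, Hox, immediate early or ribosomal protein gene was called, of 16, 14, 6, 8 and 10 measured, with medians of 0.02, 0.04, -0.10, -0.07 and -0.21. In the astrocyte list Aldoc rose, 1 of 16, and Gja1, the astrocyte connexin, differed by -0.22 ± 0.16 (adjusted p = 0.629). Of 20 vascular genes 2 rose and 1 fell, a larger share than over all genes. The pericyte regulator Rgs5 rose by 0.92 ± 0.24 and vitronectin Vtn by 0.59 ± 0.13, and the lipid transporter Mfsd2a fell by 0.52 ± 0.14. The choroid plexus gene Sostdc1 rose by 0.65 ± 0.16, 1 of 14, with Ttr at 6.41 to 7.09. In the meninges list Col1a1 rose by 0.54 ± 0.12 and Crabp2 fell, of 15. The glucose transporter Slc2a3 rose by 0.64 ± 0.13, 1 of 12 hypoxia and glycolysis genes. Xist, the transcript of the inactive X chromosome, read 10.46, 9.22 and 11.73 at E13 and 9.38 and 11.23 at E14, so arrays of each age differed in it and no sex-linked gene was called. Rgs5, Vtn, Mfsd2a, Sostdc1, Col1a1 and Slc2a3 lost their calls without E14 replicate 1, at adjusted p-values of 0.772, 0.42, 0.387, 0.551, 0.173 and 0.187 in that order. Rgs5, Vtn, Mfsd2a, Sostdc1 and Col1a1 lost their calls without E13 replicate 1, at adjusted p-values of 0.13, 0.0768, 0.0635, 0.0551 and 0.0684 in that order. Rgs5, Mfsd2a, Sostdc1 and Col1a1 lost their calls without E13 replicate 3, at adjusted p-values of 0.0842, 0.0691, 0.0949 and 0.0528 in that order. Mfsd2a lost its call without E13 replicate 2, at an adjusted p of 0.12. Col1a1, Mfsd2a, Rgs5, Sostdc1 and Vtn were not called under a fixed chip block, at adjusted p-values of 0.0684, 0.394, 0.293, 0.276 and 0.133 in that order.

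**Figure D5:**
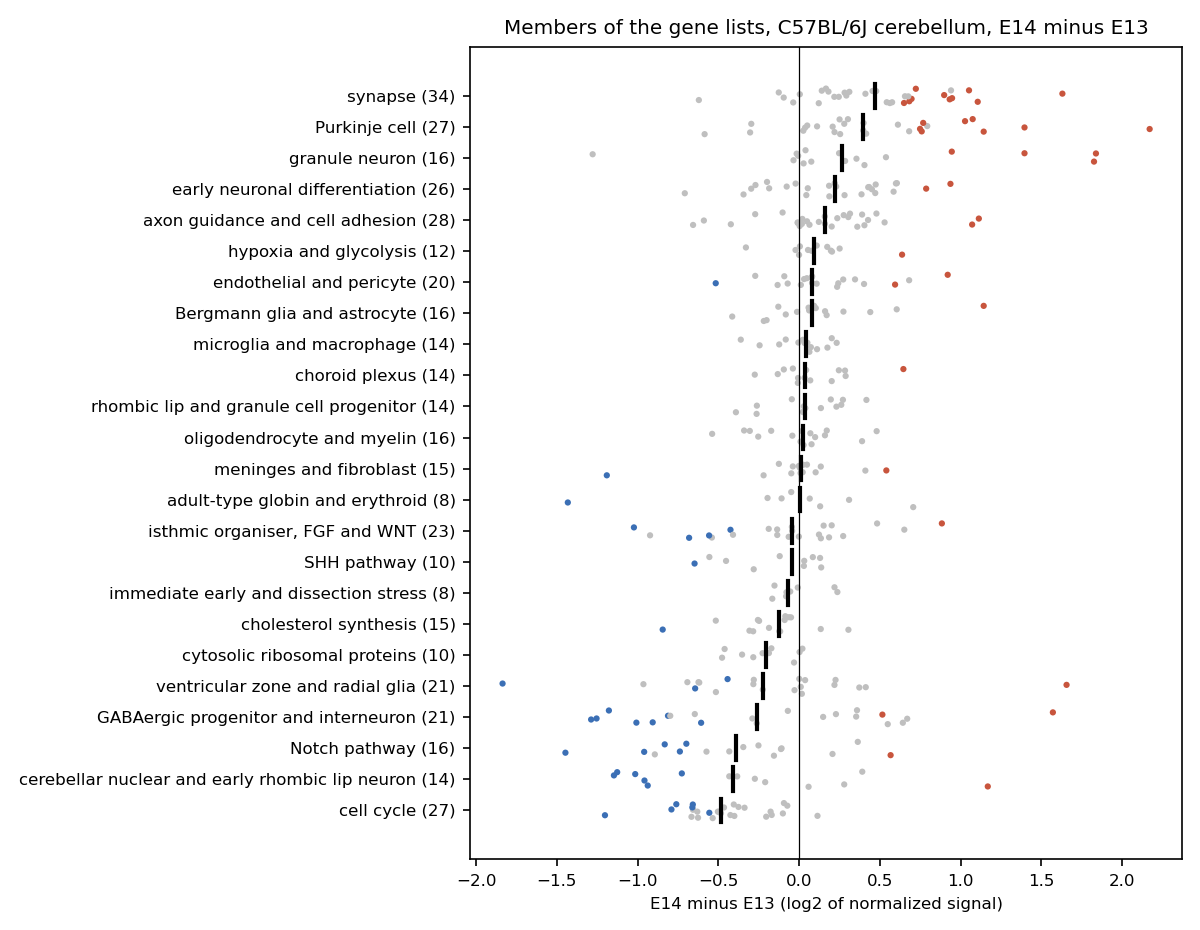
E14 minus E13 difference (horizontal axis, log2) of every measured member of the 24 gene lists with at least 8 measured members (number in brackets), 1 point per gene, red for genes that rose, blue for genes that fell and grey for genes without a call, with the list median as a black bar. The synapse median lies at 0.47, the Purkinje median at 0.40 and the cell cycle median at -0.48.

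The same step of age in DBA/2J, on arrays that the C57BL/6J contrast does not use, was set beside it. The array labelled DBA/2J E13 replicate 3 correlated with C57BL/6J E13 replicate 1 at r = 0.995 and with DBA/2J E13 replicate 1 at 0.943. That array and DBA/2J E14 replicate 3 lay on the chip that held C57BL/6J E13 replicate 1 and E14 replicate 2. With 3 arrays per age, 931 of 25203 probes were called in DBA/2J (3.69%), and with E13 replicate 1 alone 1279 were (5.07%). Of 657 C57BL/6J calls that were tested in DBA/2J, 630 (95.9%) had the same sign there, against 61% of all 24401 probes tested in both, and with E13 replicate 1 alone the shares were 88.1% and 52.8%. Calls in the same direction in both strains numbered 310, which is 47.2% of the C57BL/6J calls and 33.4% of the 929 DBA/2J calls. With E13 replicate 1 alone they numbered 221, or 33.6% and 17.4%. No probe was called in opposite directions in either version. Rora differed in DBA/2J by 2.28 with all arrays and by 3.03 with E13 replicate 1 alone, Calb2 by 2.33 and 2.87, and Esrrb by 3.45 and 3.96. The differences of Nrarp were -0.88 and -1.34, those of Neurog2 -1.41 and -1.75, and those of Hbb-bh1 -0.94 and -1.46. The median of the synapse list was 0.65 and 0.80, and that of the cell cycle list -0.50 and -0.62.

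Whether the step differed between the strains was tested as an interaction. It was called for 14 of 26645 probes (0.0525%) with all arrays, and 1391 probes had an unadjusted p under 0.05. Without the array labelled DBA/2J E13 replicate 3 it was called for 1 probe, that of Esrrb, which was not among those 14. The Esrrb change was -1.19 in C57BL/6J minus DBA/2J with all arrays (adjusted p = 0.0658), -1.56 without that array (adjusted p = 0.000151) and -1.70 with replicate 1 alone (adjusted p = 0.000125), a larger rise in DBA/2J. In the fit with DBA/2J E13 replicate 1 alone, that age was 1 array assumed to vary like the other groups. The overlap of its calls with the 14 is not given here.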

How the data were processed

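Whole cerebellum RNA was measured on Illumina bead arrays. The intensity values are the average bead signals per probe that the authors deposited in 1 table per strain, and the labels and headers state no normalization for them. The score values of the deposited series matrix have a like mean and spread on every array, so they are not plain log2 signals, and the step that made them is not stated in the headers. They served as an alternative. No detection p-value was used, and a genome build, GRCm38.p6, entered only with the promoter sequences. The 35 C57BL/6J arrays were quantile normalized, floored at 1 and put on the log2 scale. Dim probes were dropped by asking for a value over the median of the array in all arrays of some age group with 2 or more arrays. limma 3.58.1 in R 4.3.3 fitted 1 mean per age over all 12 ages, with 23 residual degrees of freedom and Benjamini-Hochberg adjustment over all kept probes. DBA/2J, with 11 ages, was fitted likewise, and the strain difference on both tables normalized together. A gene is its brightest kept probe. Probe symbols were updated through RefSeq names, with 26307 of 46632 probes matched by symbol and 7973 by an older one. Array chips were taken from the headers. Named genes were the 15 largest called rises and falls without overlap between the ages (clone names skipped), up to 4 called members of each list with the largest change and any called against its median, uncalled members of lists with under 2 calls by signal, a set of lineage genes and the 10 largest called strain differences. The other called list members, Crym, Rbm20, Cntn2, Otx2, En1 and En2 were named after their values were seen. Some genes that these rules name are not reported here. The members and lists were chosen with earlier results of these data known. The fitting steps were tested on simulated data. Alternatives covered normalization, offset, filter, samples in the fit, chip, series and replicate blocks, array weights and each array left out.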

Additional observations from a re-analysis of the deposited data

Results flagged for a closer look

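These results rest on the arrays labelled DBA/2J E13, of which replicate 3 went against its strain label and replicate 2 lay between the strains. The 10 genes below are those with the largest called strain difference of the E14 minus E13 change (C57BL/6J minus DBA/2J, limma, 66 arrays). The differences were 2.13 for Soga3, 1.63 for 6720422M22RIK, 1.51 for 3100003M19RIK, -1.47 for Myh7, 1.39 for B130052F17RIK, 1.31 for 9030607L20Rik, 1.21 for Cars, 1.11 for 6330418B08RIK, 1.10 for E130116C07RIK and 1.09 for C630016N16RIK. Soga3 read 10.07, 11.60 and 12.45 on the arrays labelled DBA/2J E13 and 9.86, 9.24 and 9.47 on those labelled DBA/2J E14, and its C57BL/6J arrays read 12.37, 12.10 and 12.26 at E13 and 12.53 and 12.56 at E14. DBA/2J E13 replicate 3 lay within the range of the C57BL/6J arrays and replicate 2 between them and the other DBA/2J arrays. With DBA/2J E13 replicate 1 alone its strain difference was 0.85 (adjusted p = 0.278). The same fit gave -1.43 for Myh7, the slow cardiac myosin heavy chain, and 0.95 for Cars, the cysteine tRNA synthetase, at adjusted p-values of 0.0258 and 0.0866. For the other 7 genes it gave 0.40 to 0.76, at adjusted p-values of 0.132 to 0.324. Of the 10 genes Myh7 kept its call in that fit, in which DBA/2J E13 was 1 array assumed to vary like the other groups.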

How the results depend on the processing

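The count of 661 called probes became 429 under joint normalization of both strains, 434 with arrays scaled to equal medians, 212 with array weights, 1253 with the chip as a random block, 311 with the chip as a fixed block and 282 with the array series as a fixed block. A limma fit of the 5 arrays alone called 0 probes, where 2075 had an unadjusted p under 0.05. Leaving out single arrays gave 174 to 1914 calls, with both ends at the E14 arrays, whose remaining array was then assumed to vary like the other groups. The count of 96 probes past 2-fold was 58 with an offset of 50, 0 in the 5 arrays alone and 50 to 499 with single arrays left out. That count was not run on the series matrix scores, whose differences are not log2 folds. In DBA/2J the count of 931 became 1530 under joint normalization, 1682 with the chip as a random block and 483 to 1279 with single arrays left out. The strain difference, called for 14 probes, gave 0 with no filter, 0 with equal medians, 132 and 186 with the chip as a random and a fixed block, 0 to 202 with single arrays left out and 157 with DBA/2J E13 replicate 1 alone, a setting chosen after seeing the data. The cause of these shifts was not tested. Replicate numbers did not pair the arrays: same-numbered arrays of different ages had a mean correlation of deviations of -0.01, and -0.45 and -0.45 in the E13 and E14 pairs. A replicate block gave 579 calls, 93 past 2-fold and 14 for the strain difference. No called gene among those named reversed its sign, while 44 of 82 uncalled ones changed sign in some alternative. Of 74 called ones 53 stayed called under the fixed chip block and 37 without E14 replicate 1. The number of arrays limits the precision, and probes near the array median have little signal over background.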
